A study of Cavia porcellus with 44 samples.

Results

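TREM2, LGALS3 and CLEC7A, 3 genes known from lipid-associated macrophages, were followed in the livers of 44 guinea pigs. They are 3 of the 11967 gene symbols in the count table, and all 3 were among the 7750 symbols that had at least 200 counts over all animals and were tested. The genes were chosen from measured values of these same livers. TREM2 was selected on its difference between lifelong high fat and low fat feed, and LGALS3 and CLEC7A on their difference between low and high vitamin C (vitC) after a change to low fat feed. Their values between feeds, between vitC levels on low fat feed and against the lifelong low fat animals are therefore given as a description, without a test. Tests were made among the high fat groups, whose differences did not enter the choice. The HFH values of TREM2 did enter it, so its comparisons of other high fat groups with HFH are also given without a test.

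TREM2 is a surface receptor of macrophages that binds lipids and lipoproteins and signals through adaptor proteins. It is a hallmark of the lipid-associated macrophages that gather in fatty liver and in obese adipose tissue. LGALS3 encodes galectin-3, a lectin that binds β-galactosides, is made in large amounts by activated macrophages and is also made by some epithelial cells. CLEC7A encodes Dectin-1, a C-type lectin receptor of myeloid cells that binds fungal β-glucans.

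RNA was taken from the left lateral liver lobe of female Hartley guinea pigs at week 32, with each animal as 1 library. Guinea pigs, like humans, cannot make vitC. LFH animals (n = 8, labelled healthy) ate feed with 3.8% fat, 0% cholesterol, 0% sucrose and 2000 mg vitC/kg for 32 weeks, pair fed to the HFH animals. HFH animals (n = 8) ate feed with 20% fat, 0.35% cholesterol, 15% sucrose and 2000 mg vitC/kg for 32 weeks. The other 4 groups all spent the first 16 weeks on that high fat feed with 50 mg vitC/kg. For the last 16 weeks the HFL/HFL animals (n = 10) stayed on it and the HFL/HFH animals (n = 6) received high fat feed with 2000 mg vitC/kg. The HFL/LFL animals (n = 6) received low fat feed with 50 mg vitC/kg and the HFL/LFH animals (n = 6) low fat feed with 2000 mg vitC/kg. Intake was matched to the high fat group of the same second vitC level, HFL/LFL to HFL/HFL and HFL/LFH to HFL/HFH. The ages of the animals are not given in the sources used here. Fat, cholesterol and sucrose moved together in every change of feed, so their parts cannot be told apart. No group received low fat feed with low vitC throughout.

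Total counts were 21133807 to 35427724 per animal. Levels are given as CPM, the usual depth-scaled count, here made with edgeR's effective library sizes, and 3 counts equal 0.0626 to 0.170 CPM, a floor that covers counting error only. In whole liver, fewer cells of a type and less RNA per cell cannot be told apart. CPM is not scaled to gene length, so levels were compared between groups for the same gene. Sums over genes, and shares of such sums given below, depend on gene length as well.

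TREM2 RNA was close to the detection floor in LFH and abundant in every animal on high fat feed. In LFH it was 0 CPM in the lowest animal, 0.0455 CPM at the median and 0.668 CPM in the highest, and 4 of the 8 animals had 0 counts. In HFH the lowest, median and highest values were 43.9, 58.2 and 78.3 CPM. Every HFH animal was above every LFH animal, by a wide margin. The means were 0.182 ± 0.258 CPM in LFH (SD, n = 8) and 58.6 ± 12.8 CPM in HFH (SD, n = 8). The difference, HFH over LFH, was 8.22 on the log2 scale (SE 0.61), the sixth largest among the 7750 symbols. This fold rests on very few LFH reads: without LFH animal 64, which had 14 counts, it was 8.84.

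Animals moved to low fat feed had TREM2 levels between these extremes. HFL/LFH animals ranged from 0 to 12.3 CPM with a median of 2.27 CPM, and HFL/LFL animals from 3.52 to 14.2 CPM with a median of 5.47 CPM. The HFL/LFL animals were all above the LFH range, whereas HFL/LFH animal 43 had 0 counts and overlapped it. The other 5 HFL/LFH animals were at 1.82 CPM or higher, all above the highest LFH animal. On the log2 scale the difference to LFH was 4.35 (SE 0.63) for HFL/LFH and 5.13 (SE 0.62) for HFL/LFL.

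High fat feed in the last 16 weeks went with TREM2 levels of 36.6, 69.1 and 93.2 CPM (lowest, median, highest) in HFL/HFH and of 50.5, 88.8 and 148 CPM in HFL/HFL. No animal of either group reached down to the low fat animals. The mean level in HFL/LFH was 5.82% of that in HFL/HFH, and the mean in HFL/LFL was 7.52% of that in HFL/HFL. In LFH the mean was 0.311% of that in HFH. The log2 differences between feeds were 4.10 (SE 0.52) at high vitC and 3.73 (SE 0.48) at low vitC. The value at high vitC, like the HFL/LFH mean, depends on HFL/LFH animal 33, at 12.3 CPM: it was 4.89 without this animal, and 5.08 with limma voom and all animals.

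LGALS3 RNA was detected in all 44 animals. LFH animals had 5.47, 9.03 and 16.3 CPM (lowest, median, highest) and HFH animals 106, 274 and 469 CPM. The groups did not overlap, and their means were 9.81 ± 4.00 CPM (SD, n = 8) and 291 ± 130 CPM (SD, n = 8). The log2 difference, HFH over LFH, was 4.89 (SE 0.31).

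After the change to low fat feed, both changed groups lay wholly above LFH for LGALS3. HFL/LFH animals had 17.4, 42.2 and 78.6 CPM, and HFL/LFL animals had 57.9, 92.2 and 119 CPM. The lowest HFL/LFH animal was animal 43, which also had no TREM2 counts. The log2 difference to LFH was 2.20 (SE 0.29) for HFL/LFH and 3.21 (SE 0.30) for HFL/LFL.

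Between feeds, HFL/HFH animals had 156, 338 and 452 CPM of LGALS3 and HFL/HFL animals 326, 438 and 621 CPM. Each group was above its low fat counterpart without overlap. The HFL/LFH mean was 13.4% of the HFL/HFH mean and the HFL/LFL mean 20.3% of the HFL/HFL mean. Across the other pairs of a low fat with a high fat group there was a single overlap: HFH animal 6, at 106 CPM, was below the highest HFL/LFL animal.

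CLEC7A RNA was low in LFH, at 0, 0.944 and 1.27 CPM, and was 11.3, 22.8 and 28.9 CPM in HFH (lowest, median, highest). The groups did not overlap. LFH animal 79 had 0 counts of CLEC7A and also 0 of TREM2. The means were 0.738 ± 0.483 CPM in LFH (SD, n = 8) and 21.2 ± 6.08 CPM in HFH (SD, n = 8), a log2 difference of 4.83 (SE 0.40).

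After the change to low fat feed with high vitC, CLEC7A overlapped the LFH range. HFL/LFH animals had 0.343, 0.876 and 1.68 CPM, and 4 of the 6 were at or below the highest LFH value. The log2 difference to LFH was 0.38 (SE 0.43). HFL/LFL animals had 1.67, 2.78 and 4.77 CPM and were all above LFH, with a log2 difference of 1.98 (SE 0.40).

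On high fat feed CLEC7A was 10.1, 25.2 and 39.0 CPM in HFL/HFH and 14.3, 29.1 and 60.6 CPM in HFL/HFL. Both groups were above every low fat animal. The mean of HFL/LFH was 3.64% of the HFL/HFH mean, close to the 3.49% that LFH had of HFH, and the mean of HFL/LFL was 9.83% of the HFL/HFL mean. These shares were not tested against each other.

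**Figure D1:**
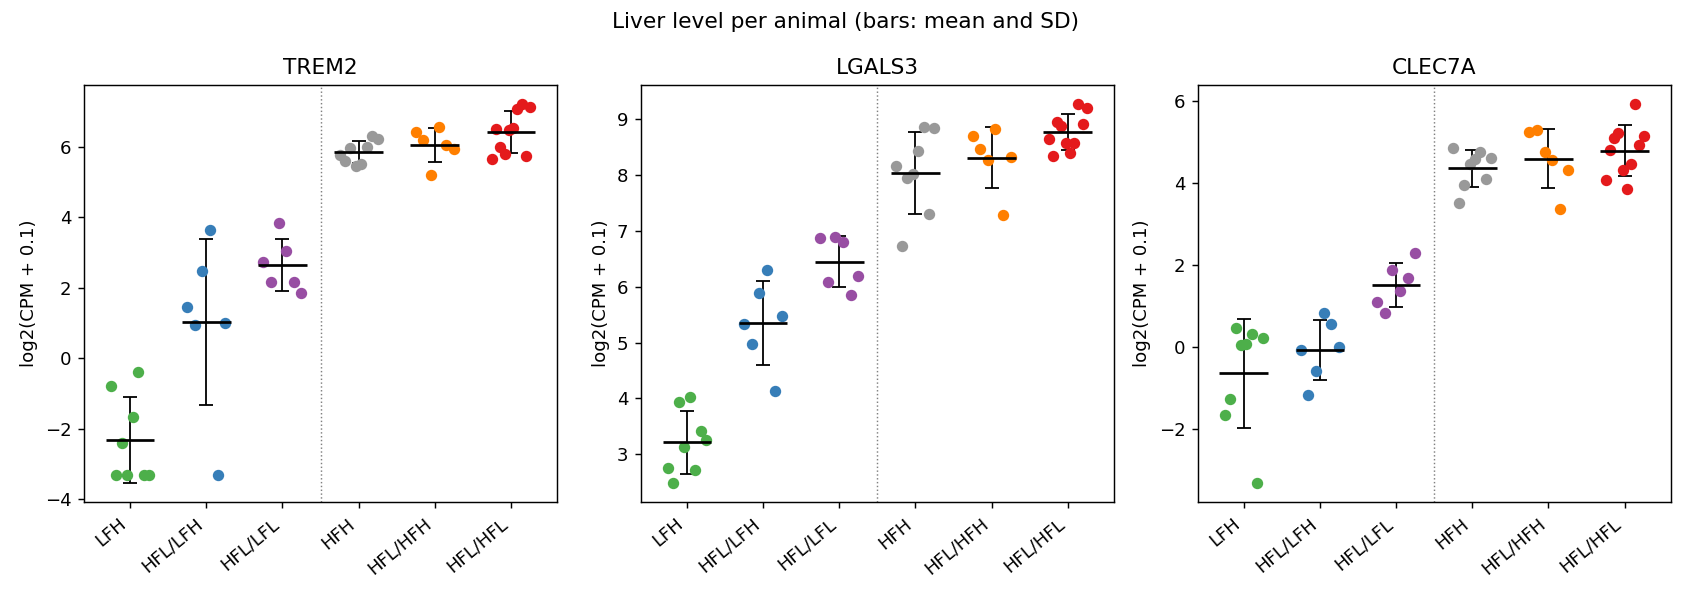
Level of TREM2, LGALS3 and CLEC7A in each animal as log2(CPM + 0.1), with the 3 low fat groups left of the dotted line and the 3 high fat groups right of it; points are animals, and black bars give the mean and SD on this scale. The high fat animals sit above the low fat ones for TREM2 and CLEC7A, and for LGALS3 HFH animal 6 (106 CPM) reaches down into the HFL/LFL range.

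The order of the group medians from low to high was LFH, HFL/LFH, HFL/LFL, HFH, HFL/HFH and HFL/HFL for TREM2 and LGALS3. For CLEC7A the first 2 were exchanged. Neighbours in these orders overlapped, except HFL/LFL and HFH for TREM2, LFH and HFL/LFH for LGALS3, and, for CLEC7A, LFH and HFL/LFL as well as HFL/LFL and HFH. For scale, 27.7% of the 7750 symbols were higher and 21.7% lower in HFH than in LFH (edgeR's quasi-likelihood test, adjusted p under 0.05), and in 8.84% every HFH animal was above every LFH animal. In HFL/HFH over HFL/LFH 19.4% were higher, 16.5% lower and 9.88% had every animal above. In HFL/HFL over HFL/LFL 19.7% were higher, 18.1% lower and 6% had every animal above. All 3 genes had every high fat animal above in each of these 3 comparisons. TREM2 was chosen on the first of them, and nothing is read from this count.

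VitC level on low fat feed was the contrast from which LGALS3 and CLEC7A came. HFL/LFL over HFL/LFH, the log2 difference was 0.77 (SE 0.48) for TREM2, 1.01 (SE 0.31) for LGALS3 and 1.60 (SE 0.43) for CLEC7A. The groups overlapped for all 3 genes, for CLEC7A only in that the lowest HFL/LFL animal (1.67 CPM) was just under the highest HFL/LFH animal (1.68 CPM). The TREM2 value depends on HFL/LFH animal 33, the highest of its group for all 3 genes: without this animal it was 1.57, and with limma voom and all animals 1.59. The summed level of 8 general macrophage genes was 582 to 1546 CPM in HFL/LFH and 1011 to 2058 CPM in HFL/LFL. Of these 8 genes 7 had a positive log2 fold change and 4 an unadjusted p under 0.05, a level reached by 850 of the 7750 symbols, and edgeR called 0. Their part in the differences of the 3 genes was not tested. Of all 7750 symbols, 0.219% differed in either direction in this comparison, which is 17 symbols. DESeq2 called 80, limma voom 40 and a fit of only the groups compared 0, and leaving out 1 animal of the compared groups gave 3 calls at the lowest (HFL/LFH animal 3 removed) and 57 at the highest (HFL/LFL animal 17 removed). Among the 17 were KRT23, a keratin of bile duct cells (1.94, SE 0.44, edgeR adjusted p = 0.0378), and MMP25, a protease of neutrophils (2.06, SE 0.43, adjusted p = 0.0237). The other 4 tested cholangiocyte genes were not called, at -0.11 for KRT19, 0.21 for EPCAM, 0.36 for KRT7 and 0.55 for CLDN4. MMP25 was the 1 called of 8 tested neutrophil genes. The part of bile duct cells and neutrophils in the LGALS3 and CLEC7A values was not tested.

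On high fat feed no difference between vitC levels was detected for any of the 3 genes. HFL/HFL over HFL/HFH, the log2 fold change was 0.40 for TREM2 (SE 0.40, 95% interval -0.38 to 1.19), 0.42 for LGALS3 (SE 0.27, -0.11 to 0.96) and 0.19 for CLEC7A (SE 0.33, -0.47 to 0.84). The Benjamini-Hochberg adjusted p was 0.9997 for each (edgeR). The intervals allow a level in HFL/HFL up to 2.29-fold that in HFL/HFH for TREM2, 1.94-fold for LGALS3 and 1.79-fold for CLEC7A, so the genes are not shown to be alike at both vitC levels. Over all symbols 0.0129% differed, which is 1 symbol, with 261 at an unadjusted p under 0.05.

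The continued deficiency group was also set against lifelong HFH. HFL/HFL over HFH, the log2 fold change was 0.64 for TREM2 (SE 0.37, a description), 0.62 for LGALS3 (SE 0.25, edgeR adjusted p = 0.211) and 0.49 for CLEC7A (SE 0.31, adjusted p = 0.403). Neither LGALS3 nor CLEC7A passed the threshold. LGALS3 had an unadjusted p of 0.0168, and its adjusted p ran from 0.0627 to 0.227 over the other settings and from 0.105 to 0.357 with 1 animal left out. Among all symbols 0.271% differed, which is 21 symbols. This count depended on the tool and on single animals: DESeq2 called 147 and limma voom 557, a fit of only the groups compared called 0, and with 1 animal of the compared groups left out edgeR called from 0 (without HFH animal 1, 14 or 61 or HFL/HFL animal 81) to 157 (without HFH animal 88).

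HFL/HFH over HFH, the log2 fold changes were 0.24 for TREM2 (SE 0.41, a description), 0.20 for LGALS3 (SE 0.28, edgeR adjusted p = 0.921) and 0.31 for CLEC7A (SE 0.34, adjusted p = 0.908). By edgeR 0% of symbols differed, with 6.01% at an unadjusted p under 0.05, and DESeq2 and limma voom called 0 as well.

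The vitC difference on low fat feed minus that on high fat feed, the interaction, was 0.37 (SE 0.62) for TREM2, 0.59 (SE 0.40) for LGALS3 and 1.42 (SE 0.53) for CLEC7A on the log2 scale. It contains the contrast that chose 2 of the genes and was not tested for them. The TREM2 value was 1.16 without HFL/LFH animal 33 and 1.34 with limma voom. Over all symbols 0% passed by edgeR, with 638 at an unadjusted p under 0.05. DESeq2 called 3 and limma voom 0.

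**Figure D2:**
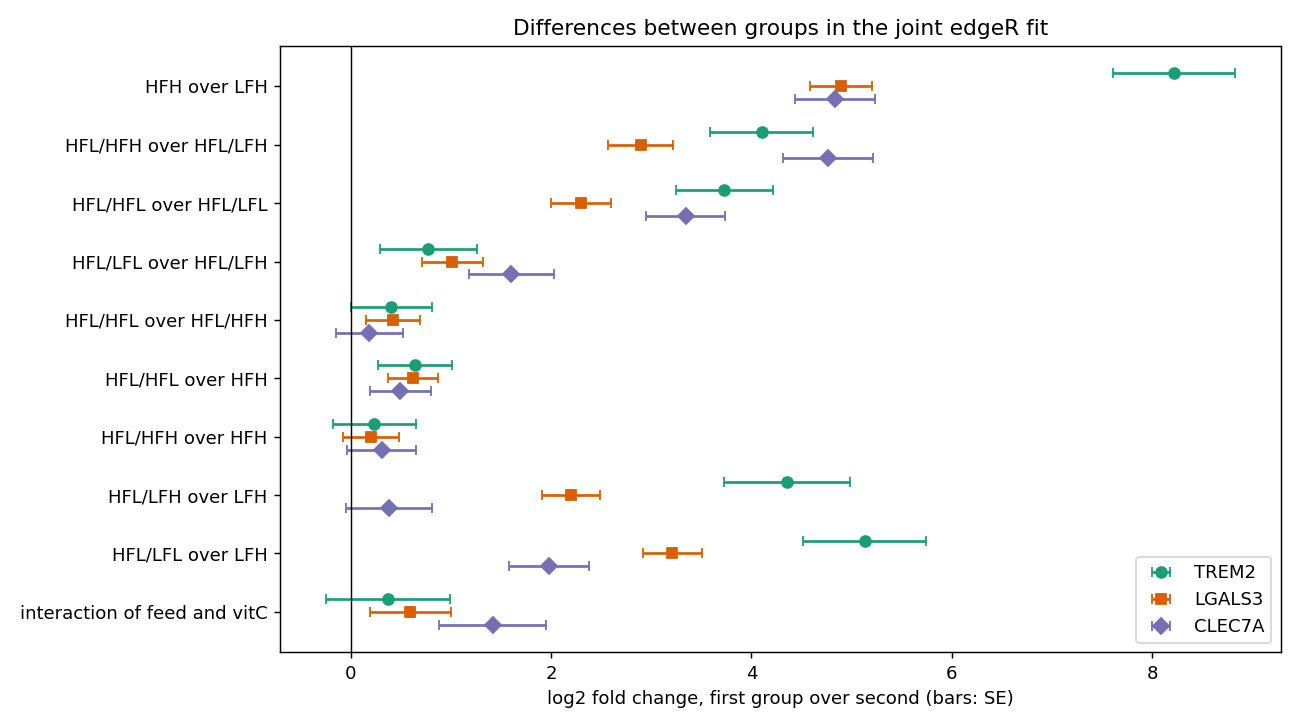
Log2 fold change of TREM2, LGALS3 and CLEC7A (x axis, first group over second, bars are SE) in the 10 comparisons of the joint fit (y axis). The 3 comparisons between feeds lie between 2.30 and 8.22, and the 3 comparisons among high fat groups between 0.19 and 0.64.

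Other genes of lipid-associated macrophages were then examined, from a list of 35 in addition to the 3 above. Of these, 18 were tested. In HFH over LFH 15 of the 18 were higher and 0 lower, with a median log2 fold change of 2.11 against 0.06 over all symbols. In HFL/HFH over HFL/LFH 16 were higher (median 1.56, all symbols 0.01), and in HFL/HFL over HFL/LFL 16 (median 1.07, all symbols 0.03), again with 0 lower. Among all symbols 27.7%, 19.4% and 19.7% were higher in these 3 comparisons, and 21.7%, 16.5% and 18.1% lower. TYROBP, the adaptor of TREM2, and GPNMB, SPP1, CD36, ITGAX and CTSB were not analysed here.

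Genes of lipid handling among the 18 ranged widely. FABP5, a fatty acid carrier, had 1.53, 4.57 and 9.29 CPM in LFH (lowest, median, highest) and 50.5, 134 and 206 CPM in HFH. The groups did not overlap, and the log2 fold change was 4.68 (SE 0.35, edgeR adjusted p = 1.66e-14). FABP4, another carrier of this family, rose by 4.17 (SE 0.54, adjusted p = 2.36e-08). LPL, lipoprotein lipase, rose by 2.95 (SE 0.35, adjusted p = 2.81e-09), and PLIN2, which coats lipid droplets, by 2.19 (SE 0.30, adjusted p = 8.06e-08). LIPA, the lysosomal acid lipase, rose by 1.10 (SE 0.22, adjusted p = 5.59e-05). The RNA is from whole liver, and which cells made PLIN2 and the other genes, macrophages or hepatocytes, was not tested.

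MMP12, the macrophage elastase, had 0, 0 and 0.210 CPM in LFH and 13.6, 76.7 and 102 CPM in HFH. Like TREM2 it was at the floor in most LFH animals and in no HFH animal. Its log2 fold change was 10.39 (SE 0.77, edgeR adjusted p = 1.66e-14), a value that rests on very few LFH reads. CD9, a tetraspanin used as a marker of these macrophages, rose by 2.19 (SE 0.28, adjusted p = 1.26e-08). CCL3, a chemokine, rose by 3.81 (SE 0.42), but its counts are the same in every animal as those of CCL18 and CCL3L1 and cannot be assigned to one of them.

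The lysosomal proteases CTSS and CTSD rose by 1.09 (SE 0.16) and 1.02 (SE 0.14) in HFH over LFH, and GRN, which encodes progranulin, by 0.45 (SE 0.10). The CTSD counts are shared with a symbol without a gene name. Not all genes of the list followed. APOE, which hepatocytes also make in quantity, was at -0.21 (SE 0.14, edgeR adjusted p = 0.224), CTSZ at 0.12 (SE 0.17, adjusted p = 0.595) and CST7 at -0.12 (SE 0.32, adjusted p = 0.782).

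After the change to low fat feed the same list was nearer to LFH. In HFL/LFH over LFH 1 of the 18 genes was higher, MMP12 by 4.82 (SE 0.96, edgeR adjusted p = 0.00708), and without HFL/LFH animal 33 edgeR called 0 (3 had an unadjusted p under 0.05 with all animals). In this comparison 0.232% of all symbols were higher and 0.129% lower, 28 in all, against 64 with DESeq2, 17 with limma voom, 3 when only the groups compared were fitted and 54 without LFH animal 64. In HFL/LFL over LFH 6 of the 18 were higher and 1 lower, where 4.43% of all symbols were higher and 3.48% lower, 613 in all, against 262 when only the groups compared were fitted and 277 without HFL/LFL animal 49. The 6 were MMP12 (6.39, SE 0.85), FABP5 (2.52, SE 0.33), PLIN2 (1.48, SE 0.31), PLD3 (0.80, SE 0.20), ANXA5 (0.71, SE 0.17) and CTSD (0.70, SE 0.15), and the lower gene was CTSZ (-0.81, SE 0.19).

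Between the vitC levels on low fat feed, HFL/LFL over HFL/LFH, 0 of the 18 passed by edgeR and 16 had a positive log2 fold change, with a median of 0.56 against 0.00 over all symbols. An unadjusted p under 0.05 held for 11 of the 18, against 850 of the 7750 symbols. DESeq2 called 1, as did edgeR without HFL/LFL animal 17, and limma voom called 0. FABP5 had the value closest to the threshold, 1.40 (SE 0.35, edgeR adjusted p = 0.0645). On high fat feed, HFL/HFL over HFL/HFH, 0 of 18 passed by edgeR, DESeq2 or limma voom, with a median of 0.07. An unadjusted p under 0.05 held for 2 of them, against 261 of the 7750 symbols. The interaction of feed and vitC had a median of 0.48 over the 18 genes against 0.01 over all symbols. In it 0 of the 18 passed by edgeR, DESeq2 or limma voom, with 7 at an unadjusted p under 0.05, against 638 of the 7750 symbols. HFL/HFL over HFH, GRN alone was higher (0.46, SE 0.09, adjusted p = 0.0219). That call was lost without HFH animal 1, 6, 14 or 61, without HFL/HFL animal 81, and when only the groups compared were fitted.

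**Figure D3:**
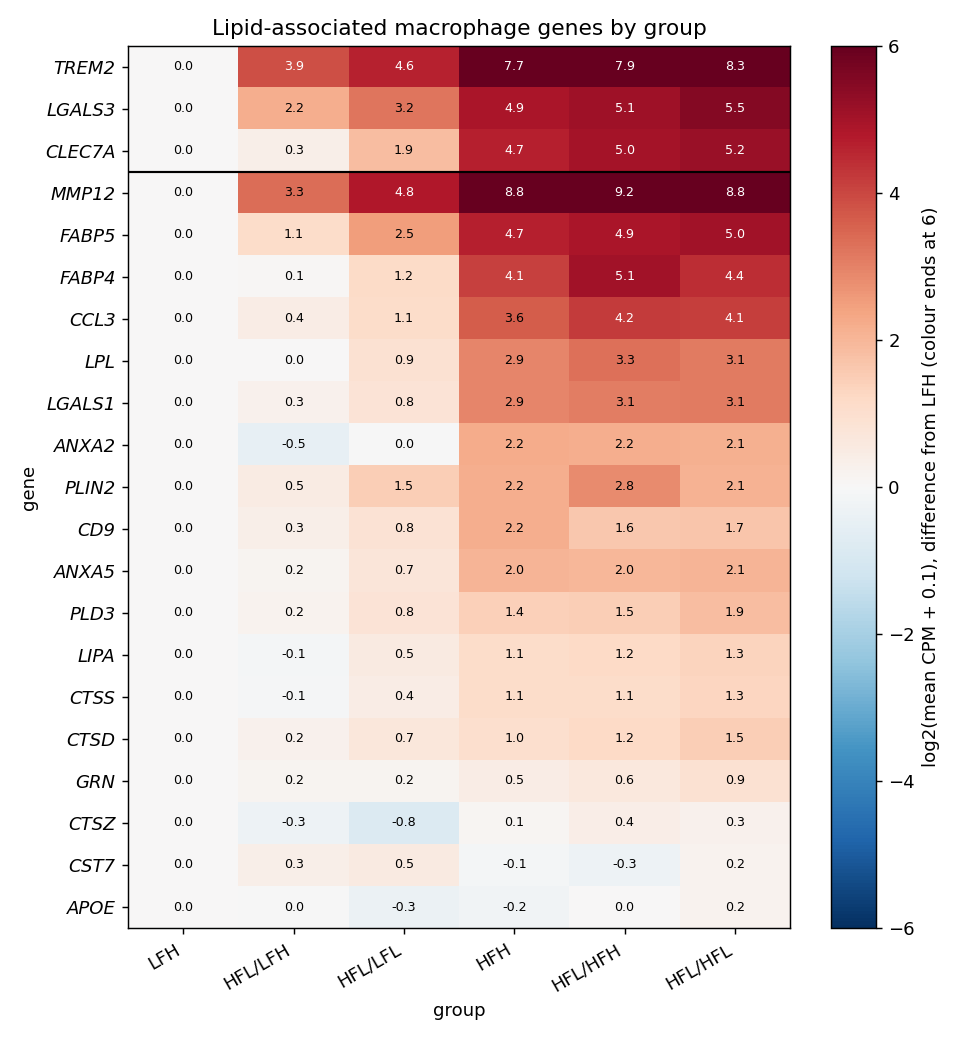
Group means of the 3 genes (above the line) and the 18 other tested genes of the list, as log2(mean CPM + 0.1) minus that of LFH; rows are genes and columns groups, and the colour scale ends at 6 in both directions. Most genes are high in the 3 high fat groups, MMP12 and TREM2 also stay above LFH in both groups moved to low fat feed, and APOE, CST7 and CTSZ stay near 0 in HFH.

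Partners of TREM2 were examined next. Of 18 signalling and shedding genes 7 were tested, and 6 were higher in HFH over LFH, 5 in HFL/HFH over HFL/LFH and 5 in HFL/HFL over HFL/LFL, with 0 lower. Of all symbols 27.7%, 19.4% and 19.7% were higher in these comparisons. ADAM10, which sheds the TREM2 ectodomain, rose by 0.66 (SE 0.08, edgeR adjusted p = 1.50e-08) in HFH over LFH. INPP5D and PTPN6, phosphatases that restrain immunoreceptor signalling, rose by 1.30 (SE 0.16) and 0.53 (SE 0.15), and the adaptor DOK3 by 1.28 (SE 0.27). MS4A6A, a membrane protein of myeloid cells, rose by 2.94 (SE 0.30), with counts that are the same as those of MS4A6E. SYK, HCST, PLCG2 and ADAM17 were not analysed here.

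Of 15 signalling genes of Dectin-1 listed, 5 were tested. In HFH over LFH 2 of the 5 were higher and 1 lower, where 27.7% of all symbols were higher and 21.7% lower. The same 2 were higher in each of the 3 comparisons between feeds: NFATC2, a transcription factor (1.39, SE 0.21, edgeR adjusted p = 3.67e-07 in HFH over LFH), and CASP8, a protease (0.81, SE 0.13, adjusted p = 9.96e-07). BCL10 and MALT1, which form a complex with CARD9, did not pass in any of the 3, and CARD9 was not analysed here.

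The list of other C-type lectins, which also holds their signalling adaptor FCER1G, had calls in both directions. In HFH over LFH 5 of the 9 tested genes were higher and 2 lower, FCER1G among the 5 (0.64, SE 0.22, edgeR adjusted p = 0.0148). Of all symbols 27.7% were higher and 21.7% lower, so the share of lower genes was near that of all symbols. CLEC12A, an inhibitory receptor of myeloid cells, rose by 2.78 (SE 0.33, edgeR adjusted p = 4.00e-09), CLEC5A by 1.64 (SE 0.23, adjusted p = 1.27e-07) and CLEC4E, the receptor Mincle, by 1.19 (SE 0.33, adjusted p = 0.00256). MRC1, the mannose receptor of resident macrophages and sinusoidal endothelium, fell by 1.05 on the log2 scale (SE 0.12, adjusted p = 1.27e-09). CLEC9A, a marker of cross-presenting dendritic cells, fell by 1.03 (SE 0.17, adjusted p = 3.09e-06). Both also fell in the other 2 comparisons between feeds. On the dendritic cell list CLEC9A was the 1 lower of 7 tested genes in HFH over LFH, and 2 were higher. WDFY4, of the same list, rose by 1.34 (SE 0.21, edgeR adjusted p = 1.01e-06).

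Of the galectins and galectin ligands 5 of 11 were tested, and 4 were higher in each comparison between feeds, where 27.7%, 19.4% and 19.7% of all symbols were higher. LGALS1, galectin-1, rose by 2.92 (SE 0.31, edgeR adjusted p = 1.99e-10) in HFH over LFH. LGALS3BP, a secreted glycoprotein that binds galectin-3, rose by 1.29 (SE 0.18, adjusted p = 1.00e-07), and LGALS8 and LGALS2 by 0.99 (SE 0.27) and 0.70 (SE 0.18). LGALS9 was not analysed here.

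General macrophage markers were also set beside the 3 genes. All 8 pan-macrophage genes tested of 16 passed in HFH over LFH, 7 higher and 1 lower, with a median of 0.87, where 27.7% of all symbols were higher and 21.7% lower. LAPTM5, a lysosomal protein of blood cells, rose by 1.31 (SE 0.15, edgeR adjusted p = 9.44e-10). The summed level of the 8 genes was 571 to 1528 CPM in LFH, 582 to 1546 in HFL/LFH and 1011 to 2058 in HFL/LFL. It was 1216 to 2440 CPM in HFH, 1434 to 2013 in HFL/HFH and 1417 to 2753 in HFL/HFL. CD74, which B and dendritic cells also make, held 66.6% of this sum.

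Of 18 markers of resident Kupffer cells listed 10 were tested, and in HFH over LFH 4 were lower and 2 higher, where 21.7% of all symbols were lower and 27.7% higher. CD5L, secreted by Kupffer cells, fell by 2.74 (SE 0.40, edgeR adjusted p = 3.03e-07), LYVE1 by 1.86 (SE 0.22, adjusted p = 2.59e-09) and NR1H3, the oxysterol receptor LXRα, by 1.70 (SE 0.16, adjusted p = 1.89e-11). These 3 were also lower in the other 2 comparisons between feeds. HMOX1, heme oxygenase 1, rose by 0.68 (SE 0.20, adjusted p = 0.00381) and was higher in all 3 comparisons, and ID3, a transcriptional regulator, rose by 0.75 (SE 0.21, adjusted p = 0.00237). LYVE1 is made by sinusoidal endothelium and NR1H3 by hepatocytes as well. The summed level was 2186 to 3703 CPM in LFH and 1236 to 2535 CPM in HFH. The defining markers TIMD4, VSIG4 and MARCO, and CD68, CSF1R, ADGRE1, MERTK and CCR2, were not analysed here, and CD163 was at 1.39 (SE 0.90, adjusted p = 0.206).

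**Figure D4:**
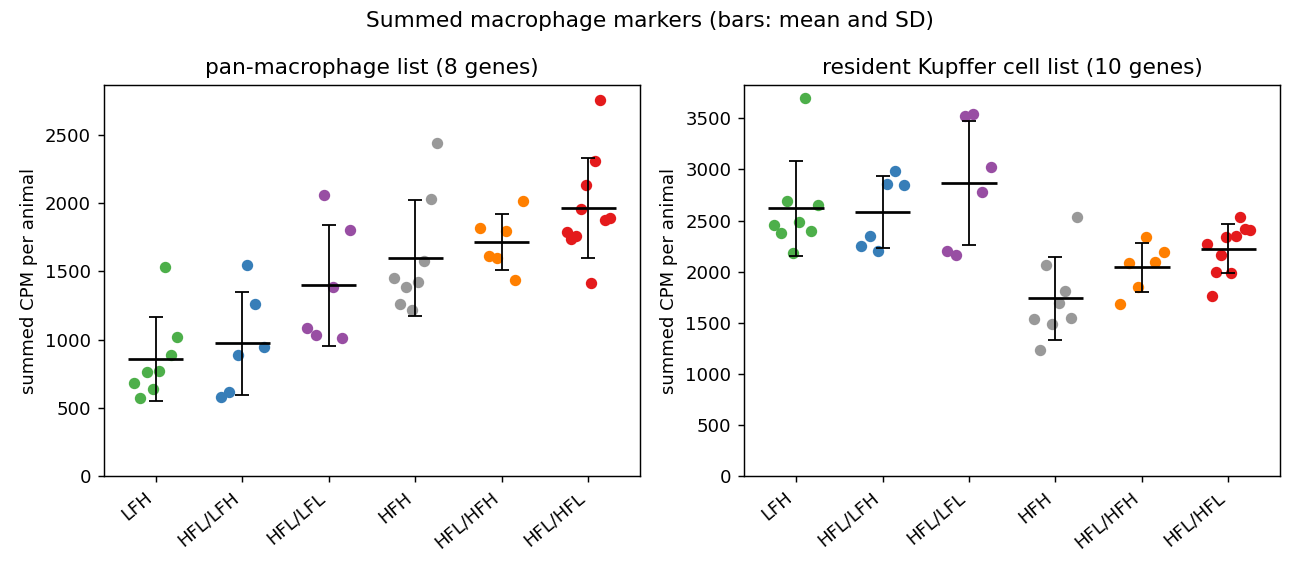
Summed CPM of the pan-macrophage list (left) and the resident Kupffer cell list (right) in each animal by group, with the y axis from 0; points are animals and bars the mean and SD. The pan-macrophage sum reaches from 571 to 1528 CPM in LFH and from 1417 to 2753 CPM in HFL/HFL, and the Kupffer cell sum is 2186 CPM or more in every LFH animal.

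The 3 genes were also divided by the pan-macrophage sum of the same animal. With medians listed as LFH, HFL/LFH, HFL/LFL and then HFH, HFL/HFH, HFL/HFL, TREM2 was 0.00597%, 0.375% and 0.512% of the sum on low fat feed and 3.81%, 4.55% and 4.64% on high fat feed. LGALS3 was 1.08%, 5.09% and 6.18%, against 19.4%, 20.8% and 23.2%. CLEC7A was 0.0895%, 0.102% and 0.183%, against 1.38% to 1.61% on high fat feed. In each of the 3 comparisons between feeds all high fat animals were above all low fat animals for each gene. The ratio of the means, HFH over LFH, was 192-fold for TREM2, 14.9-fold for LGALS3 and 15.6-fold for CLEC7A. In HFL/HFL over HFL/LFL it was 9.49-fold, 3.39-fold and 7.07-fold. With the Kupffer cell sum as denominator the HFH over LFH ratios were 554-fold, 42.6-fold and 44.9-fold. That sum ranged lower in HFH than in LFH, which raises the ratios, and it holds NR1H3, which hepatocytes also make. These ratios are a description and were not tested.

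Markers of other cells moved with the feed too. All 5 tested cholangiocyte genes, of 11 listed, were higher in each comparison between feeds, where 27.7%, 19.4% and 19.7% of all symbols were higher. KRT23 rose by 9.55 (SE 0.61), CLDN4 by 4.93 (SE 0.31), EPCAM by 3.75 (SE 0.28), KRT7 by 3.73 (SE 0.43) and KRT19 by 1.22 (SE 0.22) in HFH over LFH. KRT23 had a median of 0 CPM in LFH, so its folds against LFH rest on very few reads. Their summed level was 124 to 400 CPM over the 3 low fat groups and 678 to 1429 CPM over the 3 high fat groups, without overlap. KRT23 was also higher in HFL/LFH over LFH, by 5.38 (SE 0.69, edgeR adjusted p = 3.47e-06). Galectin-3 is known from bile duct cells, and the part of these cells in the LGALS3 level was not tested. Of the 4 tested hepatocyte genes, of 12 listed, 4 were lower in HFH over LFH, 1 in HFL/HFH over HFL/LFH and 2 in HFL/HFL over HFL/LFL, where 21.7%, 16.5% and 18.1% of all symbols were lower.

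In HFH over LFH the remaining lists differed in their counts, where 27.7% of all symbols were higher and 21.7% lower. Monocyte genes had 1 higher and 0 lower of 5 tested, and dendritic cell genes 2 higher and 1 lower of 7. Neutrophil genes had 0 higher and 1 lower of 8, T and NK cell genes 1 higher and 1 lower of 12, and B cell genes 0 higher and 1 lower of 7. Stellate cell and fibroblast genes had 3 higher and 2 lower of 7, and endothelial genes 1 higher and 0 lower of 4. In HFL/HFH over HFL/LFH monocyte genes had 3 of 5 higher and neutrophil genes 2 of 8, where 19.4% of all symbols were higher. In HFL/HFL over HFL/LFL monocyte genes had 1 of 5 higher and neutrophil genes 1 of 8, where 19.7% of all symbols were higher. The monocyte median was -0.42 there, against 1.97 in HFL/HFH over HFL/LFH. Endothelial genes had 3 of 4 lower in HFL/HFL over HFL/LFL, where 18.1% of all symbols were lower.

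Variation between animals of the same group was not used to choose the genes, and it was used to ask whether they vary together. The correlations are of deviations from the group mean of log2(CPM + 0.1), with permutation within groups, over 6 relations. In the 24 high fat animals LGALS3 and CLEC7A varied together, with Pearson's r of 0.746 (permutation p = 1e-05, the smallest that 100000 resamples can give, Benjamini-Hochberg adjusted p = 6.0e-05) and Spearman's rho of 0.750 (permutation p = 8.0e-05, adjusted p = 0.00048). Without HFH animal 6 and HFL/HFH animal 30, the 2 farthest animals, r was 0.607 (adjusted permutation p = 0.0054). Both animals were the lowest of their groups for LGALS3 and CLEC7A.

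TREM2 was not shown to vary with the other 2 in the high fat animals. With LGALS3, r was 0.189 (permutation p = 0.307, adjusted p = 0.615) and rho 0.263 (permutation p = 0.206, adjusted p = 0.412). With CLEC7A, r was 0.184 (permutation p = 0.435, adjusted p = 0.652) and rho 0.193 (permutation p = 0.400, adjusted p = 0.480). Leaving out HFL/HFH animal 20 and HFL/HFL animal 12 gave r of 0.194 and 0.147. The difference between these correlations and that of LGALS3 with CLEC7A was not tested.

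In the 20 low fat animals TREM2 and LGALS3 had r of 0.589 (permutation p = 0.0248, adjusted p = 0.0743) and rho of 0.458 (permutation p = 0.0619, adjusted p = 0.186). On variance-stabilized values r was 0.727 (adjusted permutation p = 0.00915) and on log2(CPM + 1) 0.703 (adjusted permutation p = 0.00996), which passed the threshold. Without HFL/LFH animals 43 and 33, the lowest and the highest for both genes in their group, r was 0.197, so the pooled relation rests on them. Within HFL/LFL, which holds neither animal, r was 0.825 and rho 0.714 (n = 6), and within LFH, where TREM2 was mostly at the floor, r was -0.12 (n = 8). The values within groups are given without a test. TREM2 and CLEC7A had r of 0.053 (permutation p = 0.821, adjusted p = 0.821) and rho of 0.129 (permutation p = 0.618, adjusted p = 0.618). LGALS3 and CLEC7A had r of 0.136 (permutation p = 0.592, adjusted p = 0.710) and rho of 0.244 (permutation p = 0.329, adjusted p = 0.480). Without the same 2 animals these were r of 0.166 and 0.187.

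**Figure D5:**
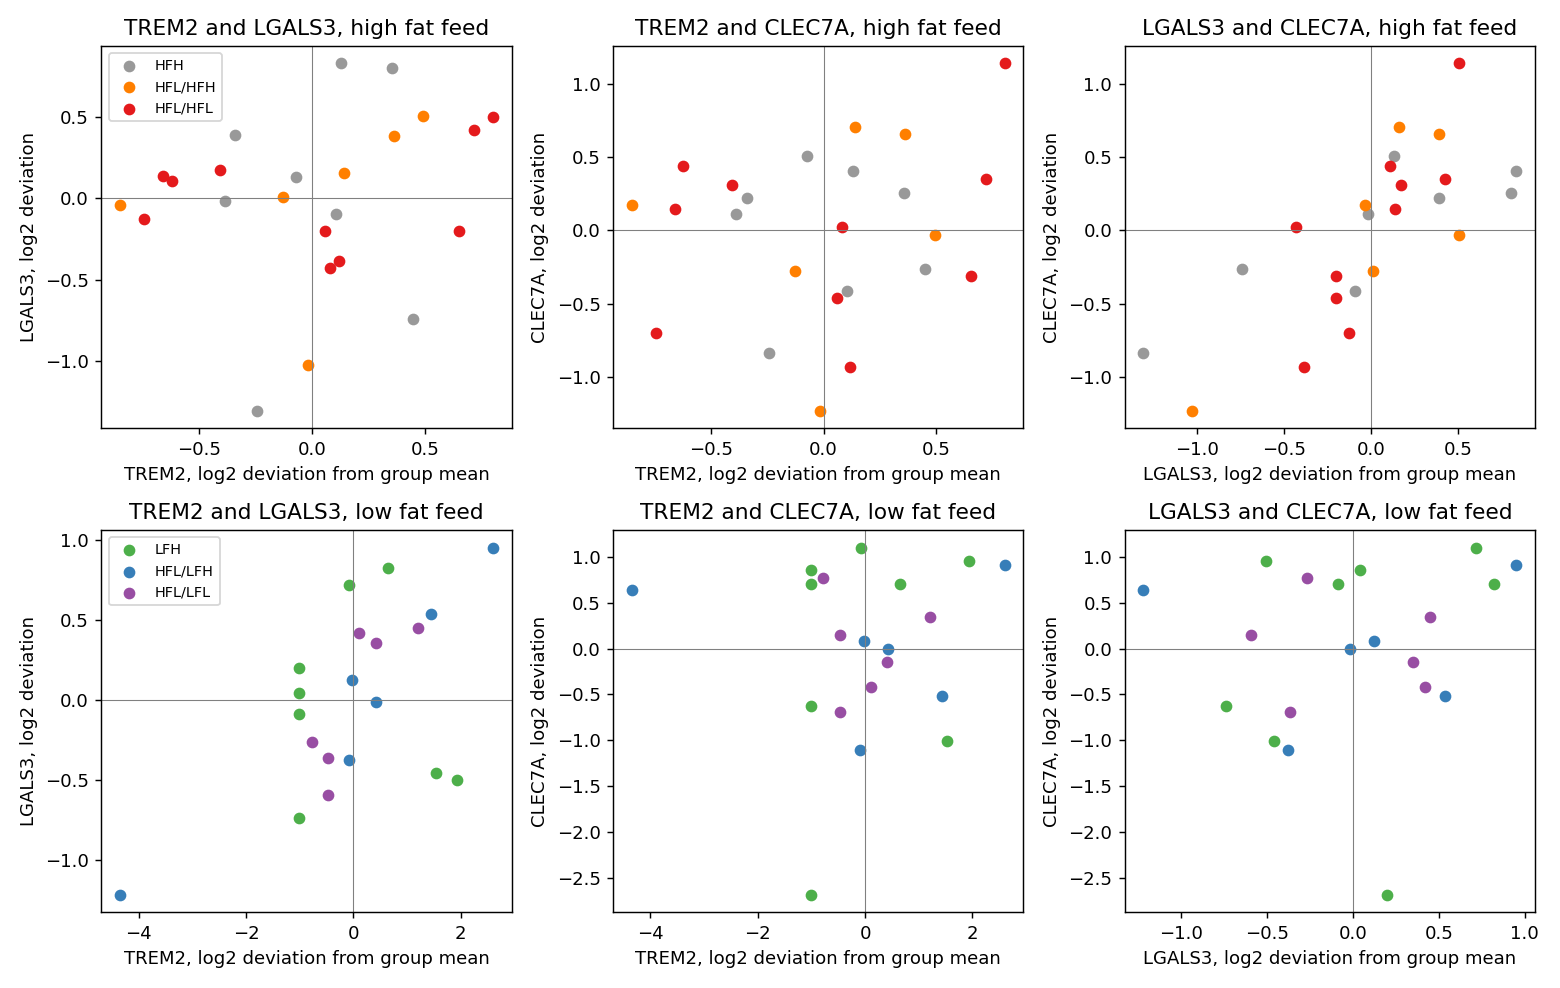
Deviation of each animal from its group mean, as log2(CPM + 0.1), for the 3 pairs of genes in the 24 high fat animals (upper row) and the 20 low fat animals (lower row); points are animals coloured by group. LGALS3 and CLEC7A lie along a line in the high fat animals (r of 0.746), and in the low fat animals HFL/LFH animals 43 and 33 lie far out for TREM2 and LGALS3.

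Some animals stood at the same end for several genes and others did not. HFL/HFL animal 81 was the highest of its 10 for all 3 genes, at 148 CPM of TREM2, 621 of LGALS3 and 60.6 of CLEC7A, and it also had the highest pan-macrophage sum of its group, 2753 CPM. HFL/LFH animal 33 was the highest of its 6 for all 3 genes and for that sum, 1546 CPM. HFL/LFL animal 44 was the highest of its 6 for TREM2, LGALS3 and the sum, 2058 CPM. HFL/HFH animal 84 had the highest sum of its 6, 2013 CPM, and ranked 5, 4 and 5 from the top for TREM2, LGALS3 and CLEC7A. HFH animal 61 was the highest of its 8 for TREM2 and ranked 7 for LGALS3 and 6 for CLEC7A. The part of the number of macrophages in these levels was not tested.

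The symbols whose pattern was most like each gene were ranked by Spearman's rho over the 44 animals with group means removed, among 6166 other symbols with a mean of at least 1 CPM. The values are a description, and animals share feed, library depth and tissue composition. For LGALS3 they were FABP5 (rho 0.787), SLC6A8, the creatine transporter (0.772), MREG (0.723), CHIT1, the macrophage chitinase (0.696), and DCSTAMP, a fusion protein of osteoclasts and giant cells (0.672). For CLEC7A they were MARCHF1, a ubiquitin ligase of antigen-presenting cells (0.734), WDFY4 (0.695), EVI2A (0.689), CCL4L2 (0.670) and CLEC5A (0.668). The counts of EVI2A, CCL4L2 and SLC6A8 are each shared with another symbol.

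The symbols most like TREM2 included SLC2A8, a glucose transporter (rho 0.718), STOML1 (0.652), AKT1, a kinase (0.621), and SLC9A2, a sodium-proton exchanger (0.614). LGALS3 ranked 316 and CLEC7A 2337 among the 6166 for likeness to TREM2 (rho 0.362 and 0.091). Without removal of the group means, where the feeds form separate clusters, the 5 symbols most like TREM2 were SLC2A8, RPS6KA1, MC1R, C15orf48 and KRT23. Those most like LGALS3 were SLC6A8, MREG, KAZALD1, FABP5 and CTSD, and those most like CLEC7A were FABP5, PLXNA1, EVI2A, LAPTM5 and LPL. The MC1R counts are shared with a symbol without a gene name.

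Of the 5 symbols most like LGALS3, 2 were higher in HFL/LFH over LFH, where 0.232% of all symbols were higher. SLC6A8 was higher by 1.27 (SE 0.30, edgeR adjusted p = 0.0324) and MREG by 1.02 (SE 0.25, adjusted p = 0.0427). FABP5 was at 1.12 (SE 0.34, adjusted p = 0.156), and CHIT1 and DCSTAMP at 0.78 (SE 0.39, adjusted p = 0.483) and 0.23 (SE 0.33, adjusted p = 0.883). Of the 5 symbols most like CLEC7A 0 passed by edgeR in this comparison and 0 had an unadjusted p under 0.05, with values between -0.15 and 0.37 on the log2 scale. In HFL/LFL over LFH, where 4.43% of all symbols were higher, 4 of these 5 were higher: MARCHF1 (0.72, SE 0.22, adjusted p = 0.031), WDFY4 (0.70, SE 0.22, adjusted p = 0.043), EVI2A (1.33, SE 0.27, adjusted p = 0.00166) and CLEC5A (0.91, SE 0.24, adjusted p = 0.0167). Of those most like LGALS3, SLC6A8, MREG, FABP5 and CHIT1 were higher there, and MREG was also higher in HFL/LFL over HFL/LFH (1.14, SE 0.26, adjusted p = 0.0378).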

How the data were processed

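Liver RNA of 44 animals was enriched for poly-A RNA and sequenced. Per the labels and the study's methods, the authors used bcl2fastq 2.19, trimmed reads with Trimmomatic 0.38.0, aligned them with HISAT2 2.1.0 to the Ensembl guinea pig genome, quantified with StringTie 2.1.1, and named genes by human orthologues. They deposited unnormalized counts per symbol, and variance-stabilized values made with DESeq2 on a log2 scale. How StringTie output became counts is not given in the sources used here. Of the sample columns, 0 were left unmapped.

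Counts of 7750 symbols (summed over animals to 200 or more) were fitted with edgeR 4.0.16 in R 4.3.3 (TMM, quasi-likelihood F test, a mean for each of 6 groups, all 44 animals), two-sided, with Benjamini-Hochberg adjustment over all 7750 and a threshold of 0.05. An SE is the log2 fold change divided by the square root of F, and 95% intervals follow from it. Correlations used log2(CPM + 0.1) and 100000 resamples. Alternatives were RLE normalization, no filter, filterByExpr, DESeq2 1.42.0, limma 3.58.1 voom with quality weights, only the groups compared, each animal left out, the variance-stabilized values, and other denominators. On data simulated for HFL/HFL over HFL/HFH over 7750 genes, edgeR recovered 79% of 100 genes changed by a log2 of 1 and 98% of 100 changed by 2, with 7 false calls.

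The 3 genes, the 16 gene lists and the tests were chosen with earlier results of these data known. Lists cover lipid-associated macrophages, TREM2 and Dectin-1 signalling, C-type lectins, galectins, and the cell types reported. Named genes are the 3 genes, fixed genes of these lists, up to 3 per list, feed comparison and direction with the largest change among those with an adjusted p under 0.05 and a mean of at least 1 CPM, and the 5 symbols most like each gene by either measure. Others named are those that passed or missed the threshold in a list, named after their values were seen. Coordinates are not given, since the gene table used here describes a different assembly. Some genes that these rules name are not reported here.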

Additional observations from a re-analysis of the deposited data

Results flagged for a closer look

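LGALS3 in HFL/HFH animal 30 was 156 CPM, against 310 CPM in the next animal of its group. On the log2(CPM + 0.1) scale, on which this was checked, the gap to the next animal divided by the range of the 6 animals was 0.645, above Dixon's critical value for 6 animals. In CPM the same ratio was 0.519, below it. Of 18 combinations of gene and group checked this was the 1 flagged, and chance flags about 1 in 20. The same animal had the lowest CLEC7A of its group (10.1 CPM), the fourth highest TREM2 (65.3 CPM) and the lowest pan-macrophage sum (1434 CPM). The part of the macrophage markers in its LGALS3 level was not tested.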

How the results depend on the processing

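No paired analysis was possible because no animal contributed to more than 1 group and the numbers are animal labels. In the 3 comparisons among high fat groups, the 3 genes kept a positive log2 fold change under 6 other settings and with each animal left out, and none of their tested values passed the threshold. With limma voom, TREM2 was 9.15 in HFH over LFH against 8.22, 5.08 in HFL/HFH over HFL/LFH against 4.10, 5.93 in HFL/LFL over LFH against 5.13, 1.59 in HFL/LFL over HFL/LFH against 0.77 and 1.34 in the interaction against 0.37. For the lipid-associated macrophage list, DESeq2 called 1 gene in HFL/LFL over HFL/LFH (0 to 1 with an animal left out). In HFL/HFL over HFH it called 3, limma voom 2 and a fit of only the groups compared 0 (0 to 2 with an animal left out, 2 without HFH animal 88). In HFL/LFH over LFH limma voom and a fit of only the groups compared called 0 (0 to 1). RLE normalization called 1 gene of the T and NK cell list in HFL/HFH over HFL/LFH, against 2. The low fat correlation of TREM2 with LGALS3 was 0.727 on variance-stabilized values (adjusted permutation p = 0.00915) and 0.703 on log2(CPM + 1) (adjusted permutation p = 0.00996). The cause of these shifts was not tested.

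With the Kupffer cell list as denominator the log2 ratio of TREM2 was 9.11 in HFH over LFH and 4.12 in HFL/HFL over HFL/LFL. That of LGALS3 was 5.41, 3.23 and 2.63, and that of CLEC7A 5.49, 5.21 and 3.72, in HFH over LFH, HFL/HFH over HFL/LFH and HFL/HFL over HFL/LFL. With the pan-macrophage list without CD74 and LYZ, an alternative chosen after seeing the data, all 9 ratios moved by less than their SD. CD68 alone as denominator was not run, since CD68 was not analysed here. The low TREM2 level limits its folds against LFH, where few reads set them.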
